A study of Mus musculus with 31 samples.

Results

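The lungs of mice taken 3 h after an injection were compared with lungs taken 1.5 h after it, on 6 microarrays that share 1 slide. The series holds 31 whole-lung arrays, each from 1 mouse. Of the 8 arrays on this slide, the 6 with a spike-in slope between 0.8 and 1.2 were used. The 3 h arrays are saline replicates 1 and 2 and oleic acid replicate 1. The 1.5 h arrays are saline replicate 2 and oleic acid replicates 1 and 2. All of these mice were female C57BL/6 animals aged 6 weeks, anaesthetised with ketamine and xylazine. Saline mice received 200 µl of physiological serum by the tail vein, and oleic acid mice received 1.2 µl of oleic acid per g of body weight in 200 µl by the same route. Oleic acid is a fatty acid used to model acute lung injury. Both times thus hold both treatments, and each difference below is the mean of the saline difference and the oleic acid difference, so that the treatments count equally. No uninjected mouse is among the 6, and p-values measure the spread between single mice.

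Immediate early genes are transcribed within minutes of a stimulus from factors already present in the cell, without new protein synthesis. Many encode short-lived transcription factors, such as the FOS and JUN partners of AP-1, the EGR zinc finger proteins and the NR4A orphan nuclear receptors. Others encode secreted proteins or phosphatases that limit the kinases which switched them on. In the lung they answer to mechanical stretch, vasoactive mediators, stress hormones and tissue injury.

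A level is the log2 signal of a probe minus the 75th percentile of its array, so levels are relative and are compared only within a gene. Values for the 6 arrays are given in the order saline 1.5 h, oleic acid 1.5 h replicates 1 and 2, saline 3 h replicates 1 and 2, and oleic acid 3 h. Whole lung was well represented, since the mean level of 20 alveolar type 2 markers lay between 5.20 and 5.39 on all 6 arrays. In bulk tissue, fewer cells of a type and less RNA per cell cannot be told apart. Between 54.3% and 72.2% of spots lay well above background, with the highest share on the saline 1.5 h array, and spike-in slopes ran from 0.997 to 1.04. The slide has its arrays in 2 rows. All 1.5 h arrays lie in row 1 and all 3 h arrays in row 2, so time and array row cannot be told apart within the slide.

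At 3 h, 13 named genes were higher than at 1.5 h and no named gene was lower. They included the 3 nuclear receptors of the NR4A family, the stress factors Atf3 and Egr1, the matricellular gene Ccn1 and the prostaglandin synthase Ptgs2. For the 12 above background on all 6 arrays, differences ran from 1.36 for Mat2a to 2.98 for Nr4a1 on the log2 scale, and Nr4a3 has only a bound. In limma, 26 of 29243 features had an adjusted p under 0.05, which is 0.0889% of those tested, with 23 higher (0.0787%) and 3 lower (0.0103%). At an unadjusted p under 0.05 there were 1964 features, and the median difference of all features was -0.01. Of the 13 named genes, 7 belong to a list of 36 immediate early genes, of which 34 were tested.

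**Figure D1:**
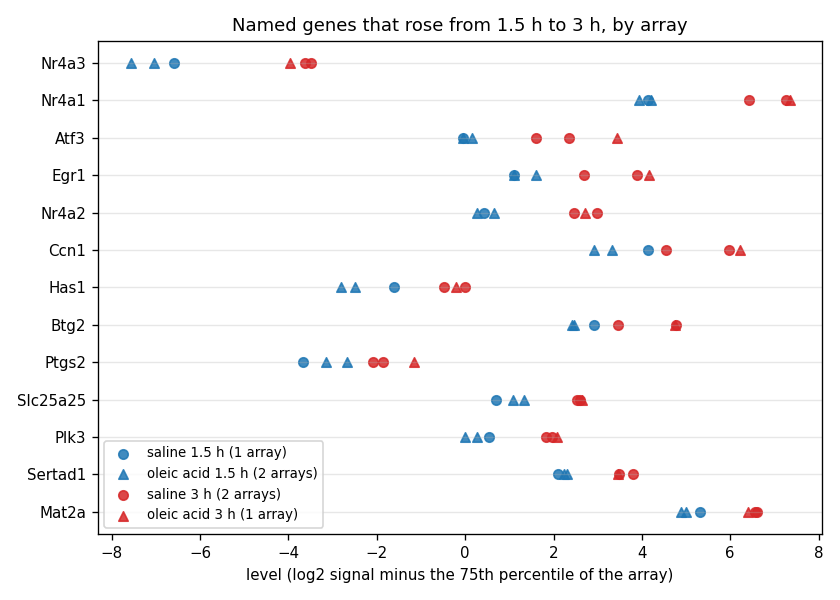
Level of the 13 named genes that rose, on each of the 6 arrays, as log2 signal minus the array's 75th percentile. Blue marks 1.5 h and red 3 h, circles saline and triangles oleic acid. In every gene the 3 red points lie to the right of the 3 blue points, which the choice of these genes required.

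The NR4A receptors bind DNA without a known hormone and are induced by cyclic AMP and calcium signals in many cells. Nr4a1 read 4.15, 4.204 and 3.94 on the 1.5 h arrays and 7.27, 6.43 and 7.34 on the 3 h arrays. The groups did not overlap, and the difference was 2.98 (standard error 0.47, adjusted p = 0.0145 in limma). Nr4a2 read 0.42, 0.66 and 0.27 at 1.5 h and 2.98, 2.46 and 2.72 at 3 h. Its difference of 2.28 (standard error 0.30, adjusted p = 0.00481) was nearly the same in saline (2.30) and oleic acid mice (2.26), and a further Nr4a2 probe gave 2.24. Nr4a3 read -6.60, -7.04 and -7.57 at 1.5 h, where no array was well above background, and -3.48, -3.63 and -3.96 at 3 h, where all were. It was at least 2.62-fold higher at 3 h (adjusted p = 0.0105 in limma), where the bound sets the 3 h mean against the dimmest signal that an array could tell from background.

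Other immediate early genes rose alongside. Atf3, a stress-induced factor that represses inflammatory genes, read -0.05, 0.16 and -0.05 at 1.5 h and 2.34, 1.60 and 3.45 at 3 h. Its highest value was on the oleic acid array, and the difference was 2.70 (standard error 0.44, adjusted p = 0.0198 in limma). Egr1, a zinc finger factor of vascular stress, read 1.11, 1.59 and 1.098 and then 3.89, 2.69 and 4.17, a difference of 2.50 (standard error 0.43, adjusted p = 0.0286). Saline 3 h replicate 2 was the lowest of the 3 h arrays for both genes, yet above every 1.5 h array. Ccn1, a secreted protein of the matrix, read 4.13, 3.32 and 2.91 at 1.5 h and 5.97, 4.55 and 6.21 at 3 h (difference 2.11, adjusted p = 0.0107). Btg2, which slows cell division, read 2.91, 2.46 and 2.42 and then 4.77, 3.45 and 4.75 (difference 1.75, adjusted p = 0.0133). For Ccn1 and Btg2 the saline 1.5 h array was the highest of its time and saline 3 h replicate 2 the lowest of its time, so the saline difference was the smaller of the 2 treatments, 1.12 for Ccn1 and 1.196 for Btg2, against 3.10 and 2.30 with oleic acid.

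As a group, 7 of 34 immediate early genes passed, all higher, against 0.0787% of all features higher at 3 h. A further 15 were higher at an unadjusted p under 0.05, giving 22 in all and none lower, where 3.81% of all features were higher and 2.91% lower at that threshold. The differences of 32 genes lay above 0, and in 21 every 3 h array lay above every 1.5 h array, as in 11.5% of all features. Over all features the times did not overlap in 19.9%, with 8.46% lower at 3 h. The median difference was 0.99, with 0.76 in saline mice and 1.22 in oleic acid mice. The mean level of the list was 1.39, 1.09 and 1.05 at 1.5 h and 2.43, 2.24 and 2.59 at 3 h. Whether the members differ as a group from other genes was not tested, and the list was chosen with earlier results of these data known.

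Among the AP-1 subunits none passed, although most values lay above 0. Fosb read -1.68, -0.32 and -1.28 at 1.5 h and 1.80, 2.17 and 2.30 at 3 h, a difference of 3.38 with an adjusted p = 0.0566 in limma. Fos read 0.42, 0.45 and -0.48 and then 1.91, 0.43 and 2.79, so that saline 3 h replicate 2 lay within the 1.5 h range (difference 1.77, adjusted p = 0.369). Differences were 1.07 for Fosl2, 0.91 for Jun, 1.25 for Junb and 0.87 for Jund. Maff, a small partner of AP-1 related factors, differed by 1.54 (adjusted p = 0.0673).

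The phosphatases and feedback genes came next. Dusp1, which inactivates MAP kinases, read 3.43, 2.38 and 2.06 at 1.5 h and 4.23, 3.36 and 4.48 at 3 h, a difference of 1.32 with an adjusted p = 0.112. Its saline arrays at the 2 times overlapped. Dusp5 and Dusp6 of the same family differed by 0.53 and 0.46, the RNA decay factor Zfp36 by 1.33 and the signalling brake Rgs1 by 1.25. Further differences were 1.4995 for Csrnp1, 1.35 for the salt-inducible kinase Sik1, 0.85 for Klf6, 0.75 for the matrix protein Ccn2, 0.73 for the survival gene Ier3 and 0.68 for Ier2. The other 9 members lay between -0.14 and 0.62, and none of these 20 genes passed.

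**Figure D2:**
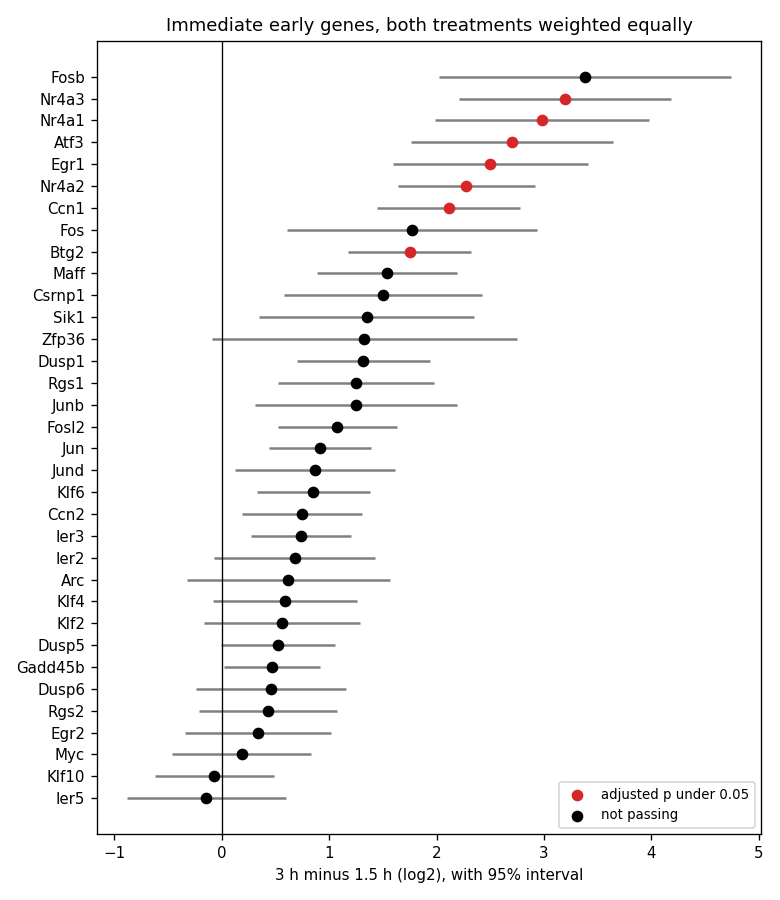
Difference between 3 h and 1.5 h on the log2 scale for 34 immediate early genes, with moderated 95% intervals. Red points have an adjusted p under 0.05. The red points other than Nr4a3 lie between 1.75 and 2.98, while the point of Nr4a3, drawn at 3.19, is set against signals that were not well above background at 1.5 h. In all, 32 of the 34 points lie to the right of 0.

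The 6 other named genes that rose lie outside that list. Plk3, a stress-responsive kinase of the polo family, had the smallest adjusted p of the named genes (0.00218 in limma). It read 0.55, -0.01 and 0.27 at 1.5 h and 1.83, 1.96 and 2.08 at 3 h, a difference of 1.64 (standard error 0.19). Has1, which makes the matrix sugar hyaluronan, read -1.60, -2.82 and -2.49 and then 0.00, -0.48 and -0.21 (difference 1.90, adjusted p = 0.0145). Ptgs2, the inducible cyclooxygenase, read -3.66, -3.14 and -2.68 and then -1.86, -2.09 and -1.16 (difference 1.72, adjusted p = 0.0187).

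The last 3 serve the cell cycle and metabolism. Sertad1, a co-regulator of E2F factors, read 2.10, 2.29 and 2.24 at 1.5 h and 3.49, 3.81 and 3.46 at 3 h (difference 1.37, adjusted p = 0.011). Slc25a25, a calcium-regulated mitochondrial carrier of ATP, read 0.70, 1.34 and 1.08 and then 2.60, 2.53 and 2.65 (difference 1.66, adjusted p = 0.0297). Mat2a, which makes the methyl donor S-adenosylmethionine, read 5.32, 4.89 and 5.00 and then 6.61, 6.55 and 6.40 (difference 1.36, adjusted p = 0.0304). The groups did not overlap in any of these 6 genes, as their choice required. Further probes of Slc25a25 and Mat2a gave 1.23 and 0.95.

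Promoters of the genes that moved together were read for short motifs. RefSeq sequences of GRCm38.p6, from 250 bases before to 50 after a transcription start, were matched by symbol. They were found for 12 of the 13 named genes, all but Egr1, and for 26 of the 34 immediate early genes. Both strands were searched, and a gene was counted if any of its starts held the motif. The cyclic AMP response element TGACGTCA lay in 3 of the 12 genes (25%) and 3 of the 26 (11.5%), against 3.12% of 12987 tested genes with a promoter and 1.79% of all 32851 promoters. Its shorter form TGACG, which every TGACGTCA contains, lay in 10 of the 12 (83.3%) and 17 of the 26 (65.4%), against 31.2% of genes and 20.8% of promoters. The E-box CACGTG lay in 1 of the 12 and 6 of the 26 genes, against 10.6% of genes. The serum response element lay in 0 and 3, against 1.73%, and the NR4A site AAAGGTCA in 0 and 0, against 1.43%. A match describes the letters of these windows only.

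The full element is shown with 20 bases on each side for the 3 named genes that rose and hold it, in capitals, as coding strand of GRCm38.p6.
Btg2, chr1:134079294-134079341, minus strand: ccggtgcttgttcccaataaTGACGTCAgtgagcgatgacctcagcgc
Has1, chr17:17855244-17855291, minus strand: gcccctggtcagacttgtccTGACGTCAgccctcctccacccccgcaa
Slc25a25, chr2:32424189-32424236, minus strand: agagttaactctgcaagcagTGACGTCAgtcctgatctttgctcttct
Nr4a3 and Nr4a1 have no full element but 4 copies each of TGACG or of its reverse complement CGTCA in the 250 bases before the start, given whole with the copies in capitals, because both are NR4A receptor genes that rose.
Nr4a3, chr4:48045055-48045304, plus strand: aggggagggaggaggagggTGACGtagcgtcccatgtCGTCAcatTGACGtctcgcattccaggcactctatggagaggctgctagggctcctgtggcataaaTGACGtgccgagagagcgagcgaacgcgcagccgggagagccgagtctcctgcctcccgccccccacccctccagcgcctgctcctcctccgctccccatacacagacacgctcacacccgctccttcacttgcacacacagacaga
Nr4a1, chr15:101266596-101266845, plus strand: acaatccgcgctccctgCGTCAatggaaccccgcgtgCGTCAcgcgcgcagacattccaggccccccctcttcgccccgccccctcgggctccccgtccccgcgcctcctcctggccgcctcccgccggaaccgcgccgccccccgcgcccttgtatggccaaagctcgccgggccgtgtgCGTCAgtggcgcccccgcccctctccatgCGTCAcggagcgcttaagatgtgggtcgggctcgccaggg

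No named gene passed in the lower direction. Mthfsd, a protein with an RNA-binding domain, came nearest, with -0.64, -0.69 and -0.92 at 1.5 h and -1.49, -1.61 and -1.81 at 3 h (difference -0.96, adjusted p = 0.0533 in limma). Coa4, an assembly factor of cytochrome oxidase, differed by -1.09, the zinc finger genes Zfp273, Zfp825 and Zfp72 by -0.97, -0.70 and -0.94, and the ubiquitin ligase adaptor Asb2 by -1.05. Zfp60 was above background at 1.5 h only and was at least 2.12-fold lower at 3 h, with an adjusted p = 0.155. Ptger2, a receptor for prostaglandin E2, differed by -0.88, and the long noncoding RNAs Neat1 and H19 by -0.62 and -1.86. For H19 the saline 1.5 h array stood apart at 1.03, against -1.07 and -0.96 in the oleic acid 1.5 h arrays and between -2.13 and -1.63 at 3 h. Further probes gave differences of -0.40 for Mthfsd, -0.86 for Coa4 and between -2.92 and -0.74 for H19.

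The other 13 features that passed carry no current gene symbol and are described here after their values were seen. All 3 that fell are probes of intergenic transcripts. Of a pair of probes for 1 transcript on chromosome 11, 1 was above background on no 3 h array and was at least 4.44-fold lower, and the other differed by -1.78. A probe on chromosome 6 was at least 1.98-fold lower. Among the 10 that rose, 3 probes of 1 intergenic transcript on chromosome 13 differed by 1.48, 1.36 and 1.39, without overlap of the times. For 3 of the 26 features the times overlapped, none of them a named gene. Their differences were 5.10, 5.81 and 4.06 in oleic acid mice, where 1 array stands for 3 h. In saline mice the same features differed by only 0.62, 0.68 and 0.41.

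The number of calls rested on single arrays, because each treatment has only 1 array at 1 of the times. Each count below is of all features that passed in that fit, and these need not be among the 26 above. Leaving out oleic acid 3 h replicate 1 leaves the saline difference alone, with 2 features passing. Leaving out saline 1.5 h replicate 2 leaves the oleic acid difference alone, with 16. Without saline 3 h replicate 1 there were 14, without oleic acid 1.5 h replicate 1 there were 16, and without oleic acid 1.5 h replicate 2 or saline 3 h replicate 2 there were 20 and 25. With the spread taken from the 6 arrays alone limma called 0 features, with 3537 at an unadjusted p under 0.05. With array row as a covariate, estimated from other slides, it also called 0, with 1022 at an unadjusted p under 0.05. In that fit the median of the immediate early genes was 1.02. Only oleic acid at 1 h and 4 h and saline at 24 h have both rows on 1 slide. The row term rests on these few arrays of other slides. In them row 2 differed from row 1 by a median of 0.01 in these genes, and 0 of 29240 features were called for row. No group on the compared slide has both rows, so an effect of row there was not tested.

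Arrays outside the comparison were read for the same genes. Oleic acid 3 h replicate 3 lies on another slide, in row 1, and was not used in the differences above. Its Nr4a1, Atf3, Egr1 and Btg2 levels were 6.95, 2.16, 3.73 and 4.43, each above all 3 of the 1.5 h arrays. All 13 named genes lay above those arrays there, as did 28 of 34 immediate early genes and 44.6% of all features. The 13 genes were chosen on the same 1.5 h arrays, so that this count is a description and no separate support. It also lay above all 3 oleic acid 4 h arrays of its own slide for 12 of the 13 genes and 24 of the 34, against 36.2% of all features. The pair of oleic acid arrays left out for their spike-in slope, replicate 3 at 1.5 h and replicate 2 at 3 h, was read in the deposited table. Values were higher at 3 h for all 13 named genes, 28 of 34 immediate early genes and 47.4% of all features. The median was 0.82 in the immediate early genes and -0.02 over all features. The 2 arrays lie on the slide compared above, again with 1.5 h in row 1 and 3 h in row 2. Their columns in that table did not match their own scanner files, with correlations of at most 0.840 against at least 0.991 for the other 29.

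Set against all 6 times, the 3 h groups were the highest for most of these genes. The group mean was highest at 3 h in both treatments for 23 of 34 immediate early genes, against 4.5% of all features. This count includes the 3 h arrays compared above. The times lie largely on different slides, so time and slide are not separated in these means. Mean Nr4a1 was 6.85 ± 0.60 (SD, n = 2) in saline and 7.15 ± 0.28 (SD, n = 2) in oleic acid mice at 3 h, and between 3.73 and 4.40 in the other 10 groups. Mean Btg2 was 4.11 and 4.59 at 3 h and between 2.12 and 3.04 elsewhere. Ptgs2 differed from this pattern, with means of -1.97 and -1.17 at 3 h and its highest mean, -0.37, in oleic acid mice at 4 h. Has1 also departed in saline mice, with a mean of 0.04 at 4 h against 0.00 and -0.48 on the saline 3 h arrays. The group mean was highest at 3 h in both treatments for 11 of the 13 named genes, which were chosen as high at 3 h. At 4 h the saline replicates lay far apart, with Nr4a1 at 3.15 on replicate 1 and at 5.64 on replicate 2, and Fosb at -0.86 and 2.59.

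**Figure D3:**
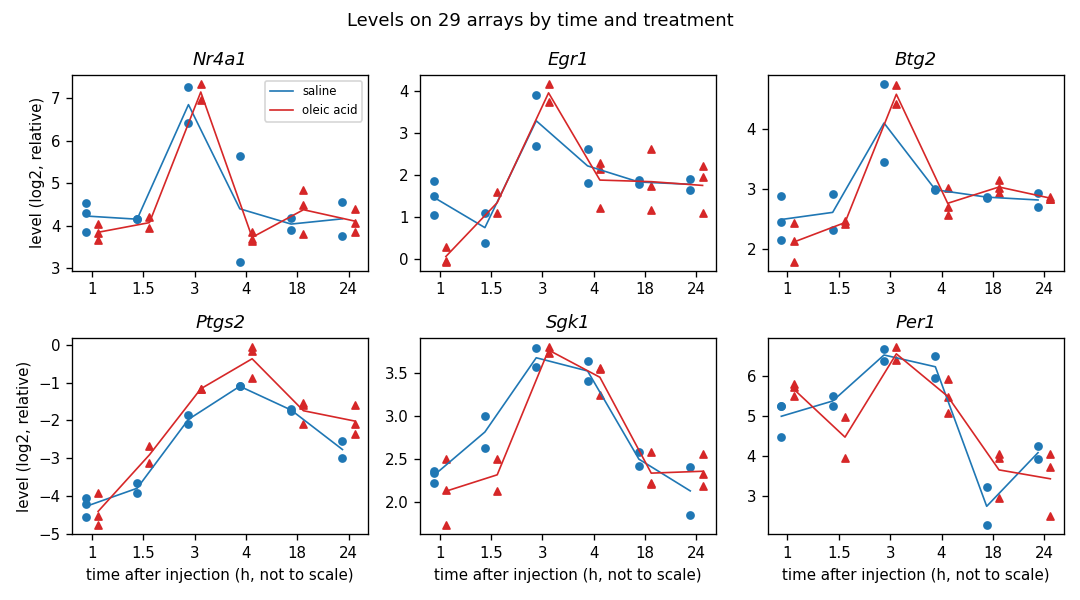
Levels of 6 genes on 29 arrays by time after injection, with saline as blue circles, oleic acid as red triangles and lines through group means. Nr4a1, Egr1 and Btg2 have their highest means at 3 h in both treatments, and Ptgs2 has its highest means at 4 h. The times lie largely on different slides.

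The labels give the time after injection and not the hour of the day, so clock genes were read as well. The molecular clock is a loop in which ARNTL and CLOCK switch on PER and CRY, which then repress them. Of 14 core clock genes 0 passed in limma. At an unadjusted p under 0.05, 6 were higher and 1 was lower, beside 3.81% and 2.91% of all features, and the median was 0.56. Per1, which also responds directly to stress hormones, read 5.51, 3.96 and 4.99 at 1.5 h and 6.38, 6.68 and 6.40 at 3 h (difference 1.48, adjusted p = 0.33). Among the other repressors the differences were 1.35 for Per3, 0.90 for Per2, 1.01 for Cry2 and 1.58 for Ciart. Nr1d1 and Nr1d2, nuclear receptors that repress Arntl, differed by 0.83 and 1.29.

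On the activator side the values lay below 0. Arntl read 0.65, 1.03 and 0.42 at 1.5 h and -0.02, -1.13 and -0.62 at 3 h, without overlap, a difference of -1.28 (adjusted p = 0.731). Npas2 and Clock, its partners, differed by -1.36 and -0.14, and the latter turned to 0.060 with median centring. The other 4 members, kinases and ROR receptors, lay between -0.28 and 0.28. All 8 output factors of the clock lay above 0, with a median of 0.84 and none passing. They were Dbp (2.15), Usp2 (1.24), Hlf (1.105), Tef (0.90), Bhlhe40 (0.79), Bhlhe41 (0.60), Wee1 (0.45) and Nfil3 (0.32). The interval of Dbp ran from 0.07 to 4.23.

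Glucocorticoid-induced genes respond to the adrenal stress hormone. Of 24 measured, 0 passed, 5 were higher and 0 lower at an unadjusted p under 0.05 (3.81% and 2.91% of all features), and the median was 0.51. Sgk1, a kinase that promotes sodium uptake, read 3.00, 2.13 and 2.50 at 1.5 h and 3.79, 3.57 and 3.74 at 3 h. Its difference was 1.05 (adjusted p = 0.0673), without overlap. Klf9 differed by 0.76 and Errfi1 by 0.98. The hormone receptor chaperone Fkbp5 differed by 0.33. In all, 22 of the 24 lay above 0, and in 5 every 3 h array lay above every 1.5 h array, as in 11.5% of all features. Oleic acid 1.5 h replicate 1 had the lowest mean level of this list, 2.64, against 3.76 and 3.35 on the other 1.5 h arrays and 3.87, 4.37 and 3.75 at 3 h. The list mean of the saline 1.5 h array thus lay within the 3 h range.

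In oleic acid mice alone, 16 features passed (0.0547%), 15 higher (0.0513%) and 1 lower (0.00342%). The named genes among them were Ccn1, Has1, Btg2, Plk3 and Ppbp. Only 1 array stands for 3 h in this comparison. In saline mice alone 2 features passed (0.00684%), 1 in each direction (0.00342% each), neither with a gene symbol. For the saline difference, the smallest adjusted p of named genes was 0.149, shared by Sertad1 and Nr4a2, with differences of 1.55 and 2.30, and by Fhod3, a formin of heart muscle, with -1.17.

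Whether the change over time differed between treatments was tested as an interaction. It called 0 of 29243 features (0%) in limma, with 710 at an unadjusted p under 0.05 and a smallest adjusted p of 0.0629. Among named genes the smallest adjusted p was 0.256. The interaction was 0.57 for Nr4a1 (95% interval -1.42 to 2.56), -0.04 for Nr4a2 (-1.32 to 1.24), 1.11 for Btg2 (-0.04 to 2.25) and 1.98 for Ccn1 (0.64 to 3.32). With 1 array in a cell these intervals are wide, and they do not show that the treatments acted alike.

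**Figure D4:**
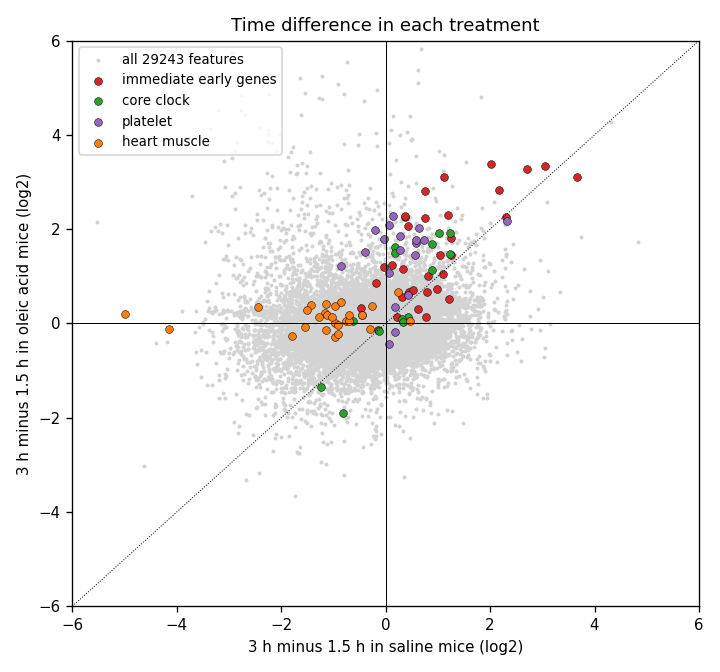
Difference between 3 h and 1.5 h in saline mice (horizontal) and in oleic acid mice (vertical), on the log2 scale, for all features in grey and 4 gene lists in colour, with 3 features outside the plotted range. Immediate early genes lie toward the upper right, platelet genes above the centre and heart muscle genes to the left of it.

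Platelet markers had a larger median difference in oleic acid than in saline mice. Of 20 platelet genes 0 passed, 11 were higher and 0 lower at an unadjusted p under 0.05, against 3.81% and 2.91% of all features, and the median was 0.90, with 0.18 in saline and 1.63 in oleic acid mice. The mean level of the list was -0.44, -0.73 and -1.31 at 1.5 h and -0.18, -0.19 and 0.32 at 3 h. The oleic acid 3 h array was the highest and oleic acid 1.5 h replicate 2 the lowest. Ppbp, a chemokine stored in platelet granules, read 1.74, 1.04 and 0.52 and then 2.15, 1.61 and 3.06. Its oleic acid difference of 2.28 passed (adjusted p = 0.0304 in limma), while its difference over both treatments was 1.21 (adjusted p = 0.112), and its interaction of 2.14 did not pass (adjusted p = 0.975). Pf4, the companion chemokine, differed by 1.01 and the platelet lipoxygenase Alox12 by 1.14. The glycoprotein Gp9 and the receptors Treml1 and Clec1b differed by 1.33, 1.25 and 1.06.

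Thbs1, which many activated cells make besides platelets, had like values in both treatments, with 2.32 in saline and 2.17 in oleic acid mice. It read 1.87, 1.86 and 1.58 at 1.5 h and 4.06, 4.32 and 3.88 at 3 h (difference 2.24, adjusted p = 0.0673). Its groups did not overlap. Of 30 genes of vessel tone and coagulation 1 passed, Ptgs2, against 0.0787% of all features higher at 3 h. At an unadjusted p under 0.05, 6 were higher and 1 was lower (3.81% and 2.91% of all features), and the median was 0.12. Bdkrb1, the inducible bradykinin receptor, differed by 1.62 and the vasoconstrictor Edn1 by -0.91.

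Heart and fat genes stood high on the saline 1.5 h array. Of 27 heart muscle genes 0 passed and 7 were lower at an unadjusted p under 0.05 (2.91% of all features), with a median of -0.48, made of -0.98 in saline and 0.13 in oleic acid mice. The atrial hormone Nppa read 7.36 on the saline 1.5 h array and between 2.82 and 3.78 on the other 5, and Nppb read 1.25 there and between -3.97 and -3.73 on the others. The list mean was 2.63 on that array and between 1.21 and 1.59 on the rest. The 16 fat cell genes had a median of -0.34, with -1.10 in saline and 0.55 in oleic acid mice, and list means from -0.33 on saline 3 h replicate 1 to 1.82 on the saline 1.5 h array. The part of this tissue in the differences of other genes was not tested. Without that array only the oleic acid difference is left, with 1 array at 3 h. Among the named genes that rose, it was smaller than over both treatments for Sertad1 (1.19), Slc25a25 (1.44) and Nr4a2 (2.26). It was larger for the others, such as Nr4a1 (3.27), Ccn1 (3.10) and Plk3 (1.95).

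**Figure D5:**
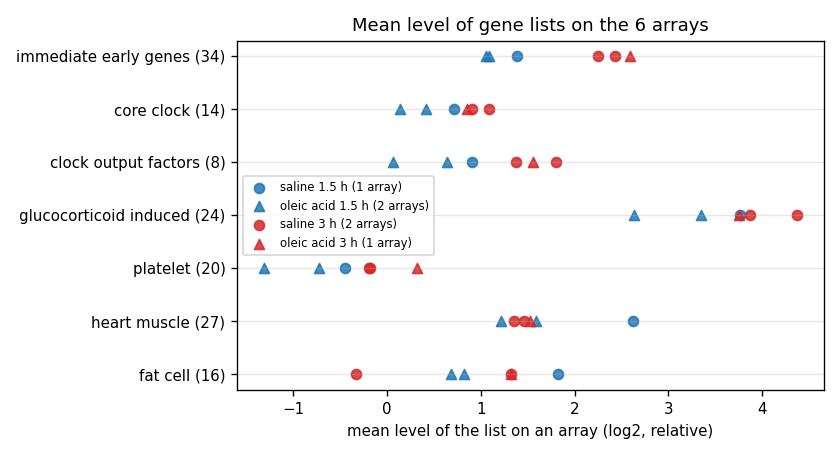
Mean level of 7 gene lists on each of the 6 arrays (number of genes in parentheses), as log2 signal minus the array's 75th percentile. The 3 h means of immediate early genes lie apart from the 1.5 h means, while heart muscle genes stand high on the saline 1.5 h array alone.

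Inflammatory mediators were read in the same way. Of 14 cytokines and growth factors 0 passed, 3 were higher and 0 lower at an unadjusted p under 0.05 (3.81% and 2.91% of all features), and the median was 0.15. Il6, a cytokine of the acute phase, read -6.41, -5.48 and -5.23 at 1.5 h, where 1 array lay above background, and -1.60, -2.60 and -1.07 at 3 h, where all did. It did not pass (adjusted p = 0.198), and no size is given because most of the 1.5 h signals were not well above background. Areg, a ligand of the epidermal growth factor receptor, differed by 2.00, with 3.34 in saline and 0.67 in oleic acid mice. Il1b and Tnf differed by 0.81 and -0.64. Of 25 chemokines 0 passed and the median was 0.25. Cxcl5, an epithelial neutrophil attractant, read -3.07, -2.84 and -3.34 at 1.5 h and -6.13, -5.36 and -6.41 at 3 h, where no array was above background (adjusted p = 0.668). Cxcl10 and Ccl2 differed by 1.196 and 1.03. In the NF-kappaB feedback list of 19 genes 1 passed, again Ptgs2, against 0.0787% of all features higher at 3 h. At an unadjusted p under 0.05, 2 were higher and 0 lower (3.81% and 2.91% of all features), and the median was 0.15.

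Stress and interferon lists lay closer to 0. Of 23 genes of the unfolded protein and integrated stress responses 1 passed, Atf3, against 0.0787% of all features higher at 3 h. At an unadjusted p under 0.05, 3 were higher and 1 was lower (3.81% and 2.91% of all features), and the median was 0.12. Ppp1r15a, which restarts translation, read 3.45, 2.94 and 3.21 and then 4.54, 4.66 and 4.54, a difference of 1.31 (adjusted p = 0.0762), and Atf4 differed by 0.85. The median of 19 heat shock genes was -0.09 (0.11 with median centring) and that of 20 hypoxia genes 0.08 (-0.0015 with quantile normalization), and 0 passed in either. The median of the 27 interferon response genes was -0.16 (0.05 with median centring), and no member passed. Usp18, which restrains interferon signalling, differed by -0.40 and Ifit1 by -0.49. In the lists of neutrophil (24 genes, median 0.14) and natural killer cell markers (18 genes, median -0.26) 0 passed. Klrd1, a receptor subunit of natural killer cells, read 0.01, -0.04 and -0.03 and then -0.55, -0.45 and -0.50 (difference -0.48, adjusted p = 0.679).

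Markers of the cells of the lung wall had medians near 0. Of 31 endothelial markers 0 passed, with a median of 0.12, which quantile normalization turned to -0.05 and the deposited table to -0.07. Egfl7, a secreted protein of endothelium, differed by 0.66 without overlap (adjusted p = 0.232), and Sox18, an endothelial factor, by -0.63. The medians were 0.04 for 20 alveolar type 2 markers and 0.06 for 14 alveolar type 1 markers, both of which turned below 0 with quantile normalization and in the deposited table, and 0 passed. For 20 genes of ion and water transport the median was 0.16, and for 26 genes of cell junctions it was -0.02 (0.19 with median centring), with 0 passing in both.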

How the data were processed

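Whole-lung RNA of single mice was hybridised to 1-colour Agilent arrays, 31 in all. Scanner output holds intensity values that were background-subtracted and spatially detrended by Agilent's Feature Extraction software (version 10.5.1.1), per the file headers, and flags scored 0 or 1 for spots above background and for outliers, as deposited. The deposited matrix of values holds log2 values on a common distribution, and how the authors made them is not given in the sources used here. From the processed intensity, log2 minus the 75th percentile of the array was taken. Control spots (3671 of 62976) and outlier spots were left out. Spots of a probe were averaged, a probe was kept if some group had it well above background throughout, and the brightest kept probe stood for each gene. Of the 29243 features tested, 16652 carried a current symbol through accessions or symbols matched to RefSeq. The number of arrays limits the precision.

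The test was limma 3.58.1 in R 4.3.3 (data.table version 1.17.8, statmod 1.5.0), fitted on 29 arrays in 14 cells of time, treatment and slide. Only cells with more than 1 array estimate the spread, and most of these lie at other times and on other slides. Saline 1.5 h replicate 2 and oleic acid 3 h replicate 1 stand alone in their cells and add nothing to the spread. Arrays with a spike-in slope outside 0.8 to 1.2 were left out. P-values were adjusted by Benjamini-Hochberg over all features, with a threshold of 0.05. The procedure was tested on simulated data with changes of known size at 3 h. It recovered 30% of changes of 1 and 72% of changes of 2 on the log2 scale, and 6 of 108 calls were false. A feature that did not pass may therefore still differ. The simulated noise was independent between features and arrays, without effects shared by an array or a row. Its share of false calls thus does not carry over to the calls made on the real arrays. Named genes are up to 15 rises and 15 falls that passed and whose times did not overlap, filled to 10 by the smallest p where fewer passed. Up to 5 in each direction for the other contrasts, and list members, were named as well. Genes, the 41 lists and the comparison were chosen with earlier results of these data known. Alternatives covered background correction, normalization, filters, probe choice, the arrays in the fit, slide, array row, replicate block, array weights and thresholds.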

Additional observations from a re-analysis of the deposited data

How the results depend on the processing

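Counts are given in the order both treatments, saline, oleic acid and interaction, and were 26, 2, 16 and 0. They were 52, 0, 31 and 10 with normexp, 15, 0, 0 and 0 with quantile normalization, 8, 0, 16 and 1 with median centring, and 47, 2, 32 and 3 from the deposited table. With features above background on all 6 arrays they were 27, 1, 10 and 0, on the 3 arrays of a time 30, 2, 12 and 2, without a filter on dim probes 47, 0, 61 and 25, and with outlier spots kept 27, 4, 17 and 0. The spread of the 6 arrays alone gave 0, 0, 0 and 26, and an additive fit gave 0. All 31 arrays gave 4, 0, 6154 and 0. Group means over all slides gave 384 (257 higher, 127 lower), 68, 40 and 2, and slide as a random block 405 (273 higher, 132 lower), 83, 46 and 2. Array row as a covariate gave 0, 0, 6 and 5, the share of spots above background 56, 0, 56 and 3, array weights 399 (249 higher, 150 lower), 168, 105 and 23, trended robust moderation 41, 1, 19 and 0, an adjusted p under 0.01 7, 0, 9 and 0, and a minimum fold of 1.2 17, 1, 12 and 0. Leaving out 1 array gave 2 to 25, 1 to 2, 8 to 18 and 0 to 0. Chosen after seeing the data, the deposited table with all 31 arrays gave 86, 6, 91 and 0, its 2 left-out arrays alone 53 in oleic acid, and centring on the tested features 41, 1, 17 and 4. The causes were not tested. Median centring moved the median of all features to 0.19, so its differences are relative to that shift.

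The 26 features that passed kept their direction in every setting in which they were tested. Most settings use the same arrays on which these features were chosen, so this is a description and no separate support. Some list members that did not pass changed sign. With all 31 arrays the differences were -0.30 for Atf4, -0.50 for Cry2, -0.049 for Dusp6, -0.19 for Egfl7, -0.51 for Fkbp5, -0.093 for Ier3, -0.48 for Il1b, -0.18 for Jund, -0.072 for Klf6, -0.32 for Klf9, -0.66 for Nfil3, 0.21 for Npas2, -0.034 for Pf4, -0.099 for Tef and -0.063 for Wee1. Median centring gave 0.060 for Clock. Leaving out 1 array gave -5.00 to 0.21 for Nppb and -1.17 to 0.19 for Fhod3, both highest without saline 1.5 h replicate 2. It gave -0.0027 to 0.66 for Fkbp5, with the lowest without oleic acid 1.5 h replicate 1, and -0.069 to 0.98 for Wee1, with the lowest without oleic acid 3 h replicate 1.

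Replicate numbers did not pair the arrays, since deviations from group means correlated by a median of 0.0237 over 100 same-numbered pairs, from -0.766 to 0.841, and by 0.000932 between different numbers. With a replicate block the counts were 47 (35 higher, 12 lower), 2, 13 and 2.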
